A study of Mus musculus with 10 samples.

Results

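Described here are 8 genes of the complement system in mouse mammary tumours: C3, C4b, C2, Cfb, Cfp, C3ar1, C5ar1 and Serping1. They were chosen by name, as complement proteins other than C1q together with a regulator and the anaphylatoxin receptors. Earlier results of these data were known when they were chosen. They are 8 of the 37882 genes in the counts table. All 8 were found under those names and all 8 passed the low-count filter, with 14063 genes tested in all. The tumours were grown from MCa-M3C, a mouse breast tumour line, in the mammary site of FVB/N mice, and treatment began at about 100 mm3. The Control group (n = 5 libraries) received PBS and the TMA-ARB group (n = 5) received 40 mg/kg of valsartan in the TMA-ARB form, each by daily retro-orbital injection over 6 days. TMA-ARB is an angiotensin receptor blocker designed to become active in the tumour microenvironment. All tumours come from 1 cell line. Whether the libraries stem from different mice is not in the labels, so the error behind every p-value is that among libraries and may be technical.

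Complement is a cascade of proteases and binding proteins. The classical route runs from C1q, C1r and C1s to C4 and C2, whose cleaved forms build an enzyme that splits C3; the alternative route builds its own C3-splitting enzyme from C3 and factor B, and properdin stabilises it. Cleavage of C3 and C5 releases the anaphylatoxins C3a and C5a, which are read by receptors on myeloid cells, and the C1 inhibitor blocks the first proteases of the classical route. The liver makes most circulating complement, but macrophages, fibroblasts and tumour cells also make components locally.

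No member passed the test for treatment. In simulated counts this test recovered 22% of genes changed 2-fold, so not passing does not show that a gene was unchanged. Cfb, which encodes factor B, had the largest log2 fold change of the members in size (-0.84). Its mean was 18.0 CPM (counts scaled to the effective library total) under TMA-ARB against 32.3 CPM in Control, and it did not pass either. Between the members, levels per length of transcript were highest for Cfp, the properdin gene, and lowest for C2. C3 had its clearest inverse relations over the 10 libraries with Serping1 (Pearson's r of log2 CPM -0.61) and Cfp (-0.58), as a description. Control replicate 2 was both the highest library in C3 and the lowest in Cfp, and r without it was not computed.

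C3 encodes the central component that both routes cleave. C3 lies on chromosome 17 (57203970 to 57228136, minus strand, mm10). Its upstream sequence is shown because it is the one member promoter in the RefSeq table (GRCm38.p6) that held any of the 3 motifs of inflammatory transcription factors reported here, each searched on both strands. The motifs were TTGCNNAA (C/EBP), GGGA and CC with any 4 bases between them (NF-kB) and GAAA repeated after any 2 bases (ISRE, an interferon element). The table matched 4 of the 8 members, C3, Cfp, C3ar1 and C5ar1. The 250 bases before the annotated start of C3 (chr17:57228137-57228386, minus strand) are printed 5′ to 3′, with matches in capitals.
C3: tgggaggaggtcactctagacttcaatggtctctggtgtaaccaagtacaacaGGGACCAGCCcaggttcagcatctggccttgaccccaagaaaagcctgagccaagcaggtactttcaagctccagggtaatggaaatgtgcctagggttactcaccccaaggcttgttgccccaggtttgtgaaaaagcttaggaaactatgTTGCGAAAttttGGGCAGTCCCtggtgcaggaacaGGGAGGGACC
The C/EBP match begins 45 bases before the start, and the NF-kB matches begin at bases -197, -33 and -10, the middle one on the opposite strand; no matches overlap. Windows of this length held the C/EBP letters in 9.56% of 32851 promoters and the NF-kB letters in 17.63% and the ISRE letters in 2.98%. Cfp, C3ar1 and C5ar1 held none of the 3 in this window. These are matches of letters and carry no information on binding in the tumours.

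C4b encodes complement C4, the partner of C2 in the classical convertase. It lies on chromosome 17 (34728380 to 34743882) and has a near copy, C4a. Transcripts C4b-201 and C4a-207 matched at 95.9% of 5378 aligned columns, with 207 mismatches and an identical run of 433 bases, in GENCODE M21 sequences. The 60 aligned coding bases where they differ most, with 13 differing bases in capitals, show where reads can tell them apart.
C4b: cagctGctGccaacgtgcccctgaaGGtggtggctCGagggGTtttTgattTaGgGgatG
C4a: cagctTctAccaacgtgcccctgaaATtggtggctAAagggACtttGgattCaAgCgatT
The stretch covers bases 2761 to 2820 of transcript C4b-201 and bases 2755 to 2814 of C4a-207. Elsewhere, reads can fall in stretches that do not separate the genes, so counts of C4b carry that extra uncertainty. C4a measured 0.921 to 3.28 CPM in the 10 libraries, below C4b in every library but TMA-ARB replicate 9.

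The libraries held 12742953 to 16884621 counts each. No pair of libraries was identical. Mitochondrially encoded genes took a share of all counts that ran from 2.07% to 6.63% in Control and from 2.22% to 25.0% under TMA-ARB. It lay above 5% in Control replicates 3 and 4 (6.37% and 6.63%) and in TMA-ARB replicates 8, 9 and 10 (10.5%, 25.0% and 11.7%). Treatment and share cannot be told apart above 5%. The members' values on each side of 5% are given beside their results. Of the labelled line's epithelial markers, Krt18 ran from 62.1 to 201 CPM, while Epcam ran from 0.517 to 12.1 CPM. Hepatocyte markers were near 0, with Alb at most 0.131 CPM and Apoa1 at most 0.0607 CPM; the exception was Fgb at 21.6 CPM in TMA-ARB replicate 6. Each tumour is a mixture, so fewer cells of a type and less RNA per cell cannot be told apart.

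Levels between genes were compared as CPM per kilobase of exon. Cfp, which encodes properdin, was highest at 69.0 ± 15.4 CPM per kilobase (SD, n = 10 libraries). C3 followed at 30.2 ± 11.7, and lay below Cfp in 9 of 10 libraries. The receptor genes C5ar1 and C3ar1 came next at 14.5 ± 4.57 and 11.8 ± 3.20. Cfb stood at 8.91 ± 4.17 and Serping1, the C1 inhibitor gene, at 7.25 ± 4.13. C4b at 1.56 ± 0.848 and C2 at 0.769 ± 0.346 were the lowest. From C3 down to Serping1, each gene lay above the next in 8 or 9 of 10 libraries, but their means were closer than the sum of their SDs. Serping1 lay above C4b in 10 of 10 libraries, and C4b above C2 in 8 of 10. Cfp and C3, and Serping1 and C4b, were the neighbours whose means lay further apart than the sum of their SDs. The lowest member thus sat more than an order of magnitude below the highest, and the pair that forms the classical convertase, C4b and C2, was the lowest of the 8.

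**Figure D1:**
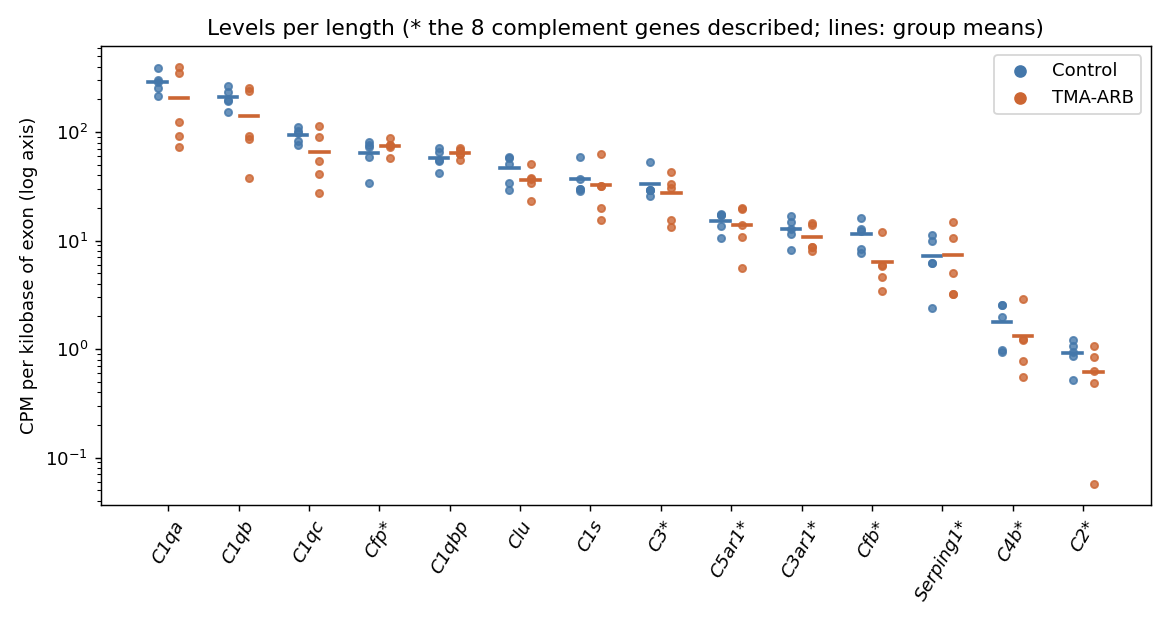
Levels per length of the 8 members (asterisks) and of the 6 highest other complement genes, as CPM per kilobase of exon on a log axis. Points are the 5 libraries of a group and lines the group means; Cfp, at 69.0 over all libraries, is the only member among the 4 highest genes, and C4b and C2 are the lowest shown.

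C3 transcripts made up the most counts of the 8 genes. In Control, C3 measured 151, 273, 133, 151 and 149 CPM in replicates 1 to 5. Under TMA-ARB it measured 79.0, 68.9, 222, 157 and 171 CPM in replicates 6 to 10. Control replicate 2 was high and TMA-ARB replicates 6 and 7 were low, and the groups overlapped. The means were 171 ± 57.3 and 140 ± 64.8 CPM (SD, n = 5 each), a log2 fold change of -0.29 ± 0.32 (SE; edgeR adjusted p = 0.997). Without Control replicate 2 the log2 fold change was -0.064.

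The sign of the C3 log2 fold change differed between the libraries below and above the 5% mitochondrial share. Below 5%, the 2 TMA-ARB libraries lay under all 3 Control libraries, and the log2 fold change was -1.37 (edgeR adjusted p = 0.275). Above 5%, the 3 TMA-ARB libraries lay over both Control libraries, and it was 0.37 (adjusted p = 0.758). On that side every TMA-ARB library also had a higher share than both Control libraries. Treatment and share cannot be told apart there, nor in the difference between the sides. The effect above minus below was 1.74 ± 0.41 (SE) on the log2 scale, with an unadjusted p of 0.000717 in edgeR and an adjusted p of 0.211. This difference was examined after the values were seen, and 10 of 14063 genes (0.0711%) passed the same test; 10.6% had an unadjusted p under 0.05. C1s, which encodes the protease that cleaves C4 and C2, turned in the same way, at -1.24 below and 0.51 above.

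Cfb encodes factor B, the protease of the alternative convertase, and lies at 34856374 to 34862518 on chromosome 17, beside C2. In Control, Cfb measured 34.6, 36.4, 45.2, 23.5 and 21.7 CPM in replicates 1 to 5. Under TMA-ARB it measured 34.2, 16.8, 9.75, 12.9 and 16.6 CPM in replicates 6 to 10. Replicates 7 to 10 lay under every Control library, and replicate 6 lay among the Control libraries. The means were 32.3 ± 9.74 and 18.0 ± 9.47 CPM (SD, n = 5 each). The log2 fold change was -0.84 ± 0.32 (SE), with an unadjusted p of 0.0199 in edgeR and an adjusted p of 0.997. The exact permutation test of the difference in mean CPM (two-sided, smallest possible p 0.00794) gave p = 0.0476.

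Cfb was the only member with an unadjusted p under 0.05, so 1 of 8, against 3.25% of all genes tested in either direction and 1.66% lower under TMA-ARB. The adjusted threshold was passed by 0 of 8 members and by 0% of all genes in edgeR. Without TMA-ARB replicate 6, the Cfb log2 fold change was -1.20. Libraries below the 5% mitochondrial share gave -0.27, those above it -1.41, and a fit with the log2 share as a covariate -0.65. The difference between the sides was -1.12 ± 0.52 (SE; edgeR adjusted p = 0.466). Of its values under 20 other settings, 20 were negative. These settings reuse the same libraries, so their signs are not independent.

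C2 encodes the protease subunit of the classical convertase and is the low-count member, with 3 to 71 counts per library. C2 measured 4.67, 2.02, 4.12, 3.37 and 3.64 CPM in Control replicates 1 to 5, and 4.12, 2.43, 0.222, 3.28 and 1.89 CPM in TMA-ARB replicates 6 to 10. TMA-ARB replicate 8 was the low library, and the groups overlapped. Its log2 fold change was -0.57 ± 0.56 (SE; edgeR adjusted p = 0.997), -0.27 without that replicate and -0.87 without TMA-ARB replicate 6. Libraries below the 5% share gave -0.058 for C2 and those above it -1.09. With sample weights in limma it was -1.16 (adjusted p = 0.503). Annotated transcripts of Gm20547 run through C2 and Cfb; this gene had 0 counts in the table. Zbtb12 overlaps C2 on the other strand with 1461 counts over all libraries, and the strand setting of the counting is not given in the sources used here.

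C4b, the C4 gene, split both groups. C4b measured 14.5, 14.5, 5.30, 5.52 and 11.2 CPM in Control replicates 1 to 5, and 16.4, 7.04, 6.87, 3.18 and 4.39 CPM in TMA-ARB replicates 6 to 10. The highest library was TMA-ARB replicate 6 and the lowest TMA-ARB replicate 9. The log2 fold change was -0.42 ± 0.44 (SE; edgeR adjusted p = 0.997). Leaving out TMA-ARB replicate 6 gave -0.92, and leaving out replicate 9 of that group gave -0.22. On the sides of the 5% share it was -0.18 below and -0.17 above.

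Cfp encodes properdin, the positive regulator of the alternative route, and varied least. Cfp lies on the X chromosome (20925454 to 20931555). It measured 141, 58.7, 126, 131 and 102 CPM in Control replicates 1 to 5, and 127, 131, 99.3, 152 and 130 CPM in TMA-ARB replicates 6 to 10. Control replicate 2, the library highest in C3, was the lowest in Cfp. The coefficient of variation over 10 libraries was 22.3% for Cfp, against 27.1% for C3ar1 and 56.9% for Serping1, the most variable member. Cfp had a log2 fold change of 0.20 ± 0.22 (SE; edgeR adjusted p = 0.997), and 0.033 without Control replicate 2. On the sides of the 5% share Cfp was at 0.36 below and -0.020 above.

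**Figure D2:**
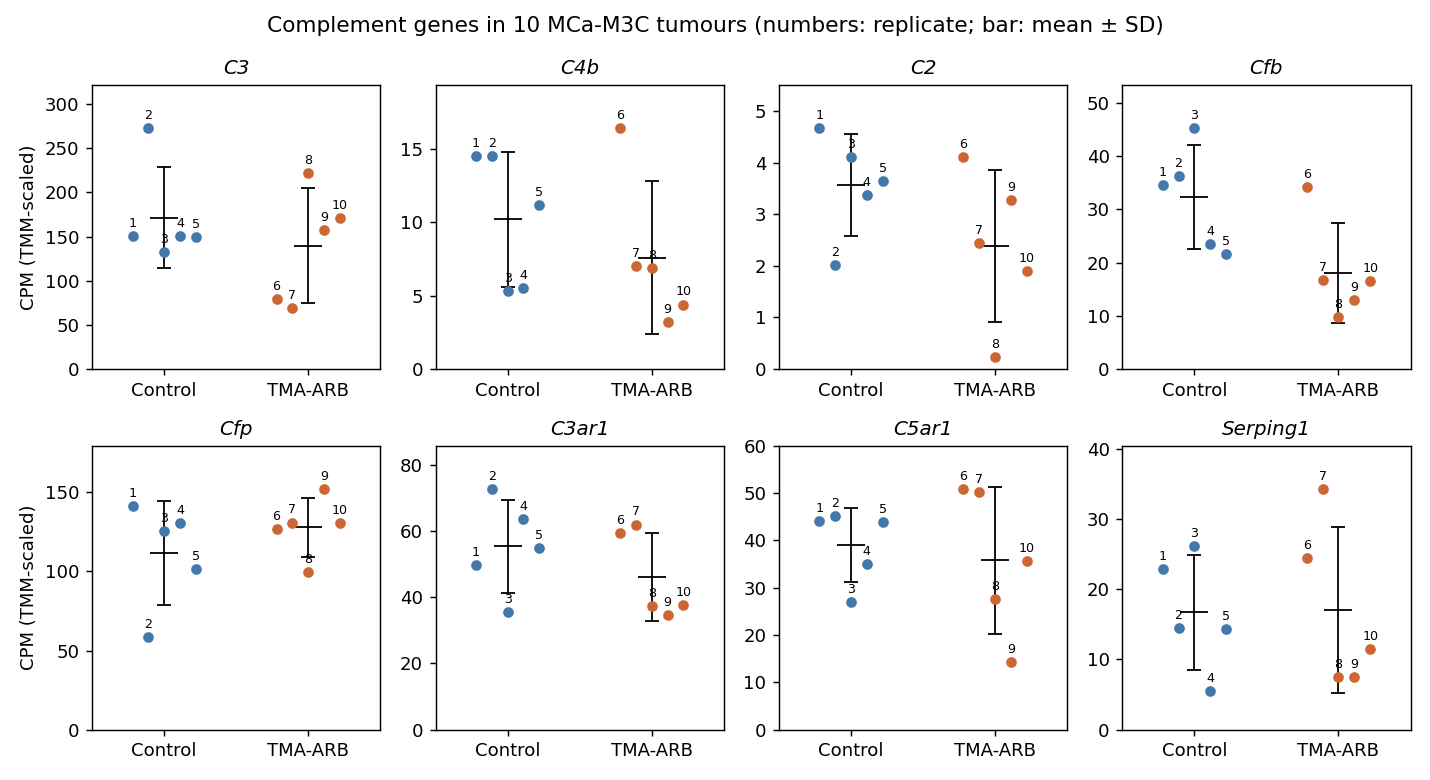
CPM of each member in every library, with the replicate number beside each point and bars for the mean ± SD of the 5 libraries. The groups overlap for all 8 genes; for Cfb, TMA-ARB replicates 7 to 10 lie under every Control library and replicate 6 at 34.2 CPM does not.

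C3ar1 encodes the receptor for C3a and lies on chromosome 6 (122847138 to 122856161). C3ar1 measured 49.6, 72.7, 35.6, 63.8 and 55.0 CPM in Control replicates 1 to 5, and 59.5, 62.0, 37.5, 34.6 and 37.8 CPM in TMA-ARB replicates 6 to 10. TMA-ARB replicates 8, 9 and 10 were low together with Control replicate 3. For C3ar1 the log2 fold change was -0.26 ± 0.23 (SE; edgeR adjusted p = 0.997), and -0.14 without Control replicate 2. It was 0.038 below the 5% share and -0.44 above it.

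C5ar1 encodes the receptor for C5a, an attractant of neutrophils and monocytes, and lies on chromosome 7 (16246743 to 16259540). C5ar1 measured 44.0, 45.2, 26.9, 35.0 and 43.9 CPM in Control replicates 1 to 5, and 50.9, 50.3, 27.6, 14.4 and 35.7 CPM in TMA-ARB replicates 6 to 10. TMA-ARB replicates 6 and 7 were the highest of all libraries and replicate 9 the lowest. The log2 fold change was -0.12 ± 0.29 (SE; edgeR adjusted p = 0.997), and 0.087 without TMA-ARB replicate 9. It was 0.19 below the 5% share and -0.26 above it.

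Serping1 encodes the C1 inhibitor, a serpin that also restrains kallikrein, and lies on chromosome 2 (84765387 to 84775444). Serping1 measured 22.9, 14.5, 26.2, 5.52 and 14.3 CPM in Control replicates 1 to 5, and 24.4, 34.3, 7.46, 7.48 and 11.6 CPM in TMA-ARB replicates 6 to 10. Control replicate 4 was the lowest library and TMA-ARB replicate 7 the highest. The log2 fold change was 0.033 ± 0.49 (SE; edgeR adjusted p = 0.997), and its sign changed with the library left out. It was 0.77 below the 5% share and -0.86 above it, a difference of -1.61 ± 0.68 (SE; edgeR adjusted p = 0.437).

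Across the 8 members, 6 log2 fold changes were negative and 2 positive, with a median of -0.28. Over all genes tested, 47.2% were negative and the median was 0.021. The members were chosen with earlier results of these data known, so this contrast is a description and was not tested. The count of negative members was 4 of 8 below the 5% share, 7 of 8 above it, and 4 of 8 with the log2 share as a covariate. The groups overlapped for 8 of 8 members; over all genes, 0.363% lay wholly lower and 0.164% wholly higher under TMA-ARB.

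**Figure D3:**
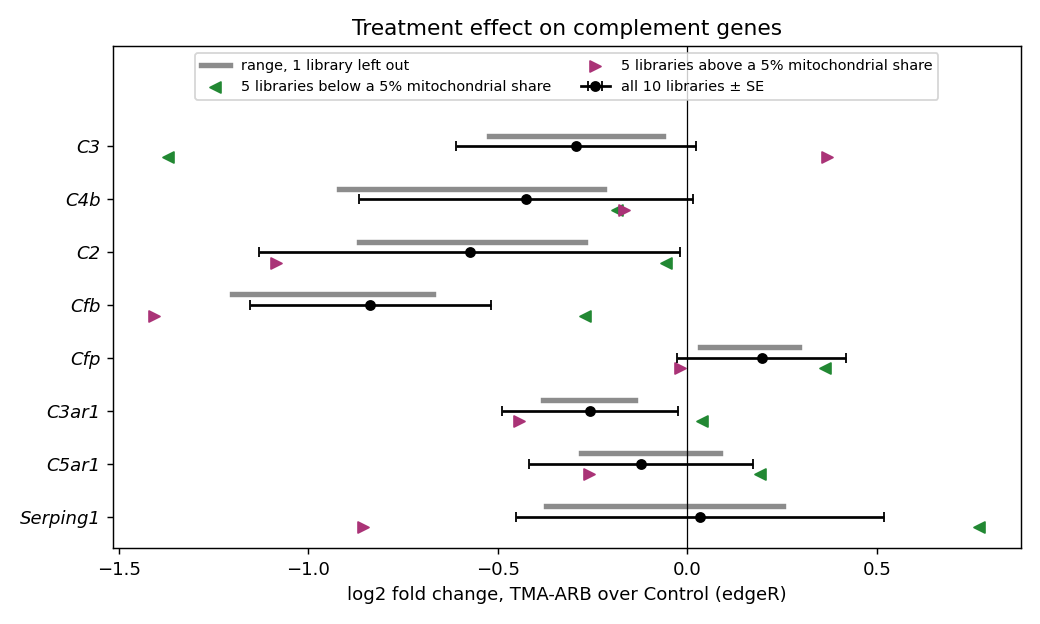
Log2 fold change of TMA-ARB over Control for each member in edgeR, with its SE over all 10 libraries (black), the range when 1 library is left out (grey) and the values in the libraries on each side of a 5% mitochondrial share (triangles). C3 and Serping1 are the members whose triangles lie far apart on opposite sides of 0, at -1.37 and 0.37 for C3 and at 0.77 and -0.86 for Serping1.

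Pearson's r of log2 CPM over 10 libraries was positive for 17 of the 21 pairs of members without C3, and for 15 of the 15 without C3 and Cfp. Every negative r involved C3 or Cfp, so the 15 of 15 follows from leaving these members out. The share of positive r over pairs of all genes was not computed. For C3, r was negative with all 7 other members, at -0.61 with Serping1 and -0.58 with Cfp. It was near 0 with C4b (-0.070), Cfb (-0.12) and C3ar1 (-0.18). Control replicate 2 was highest in C3 and lowest in Cfp, at 0.91 and -0.98 from their 10-library log2 means. C4b and C5ar1 had r = 0.78, C3ar1 and C5ar1 0.76, and the neighbours C2 and Cfb 0.67. These r values describe libraries that share a spread in mitochondrial share and in macrophage markers, and were not tested. The 3 genes most like C3, of 10859 with a mean of at least 5 CPM, were Hdac5 (r = 0.97), Ddx17 (0.95) and C1s (0.95). C1s measured 186 CPM in Control replicate 2 and 195 in TMA-ARB replicate 8, the libraries of highest C3.

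The other members had other nearest genes. Cfp was nearest to Cenpk (r = 0.95), Cdca3 (0.93) and Arl2bp (0.92), of which Cenpk encodes a kinetochore protein and Cdca3 a cell cycle protein. By ranks, Spearman's rho with Cfp was lower, at 0.77 for Cenpk, 0.72 for Cdca3 and 0.72 for Arl2bp. C3ar1 was nearest to Serinc3 (0.97), Htra1 (0.96) and Slco2b1 (0.94), and C5ar1 to Idh2 (0.97), Daglb (0.97) and Srpr (0.96). C4b was nearest to Cdc42ep4 (0.99), Man2b1 (0.96) and H2-Bl (0.96), and Cfb to Mmp15 (0.94), Itpkb (0.93) and Eif4h (0.92). Serping1 was nearest to Rgs5, a pericyte gene (0.93), Gpr125 (0.93) and Plaur (0.93). C2 was nearest to Bhlhe22 (0.94), Neurl1b (0.91) and Gm21098 (0.91), although by ranks Gm21098 had a Spearman's rho of 0.32.

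**Figure D4:**
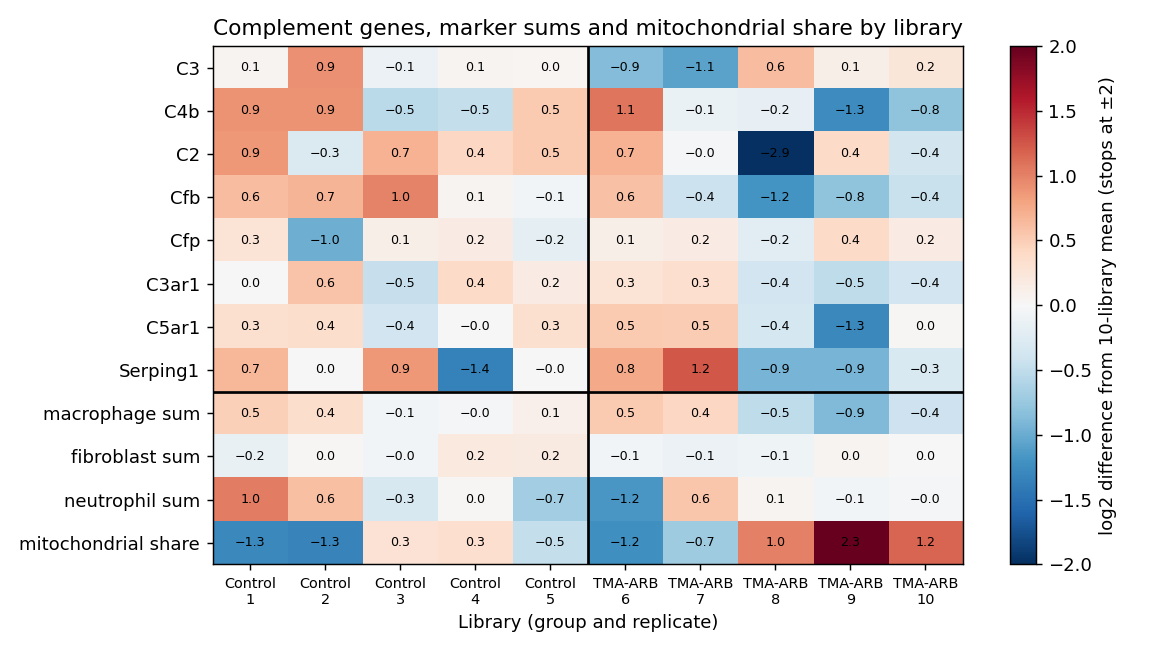
Log2 difference of each library from the 10-library mean for the 8 members, for 3 summed marker lists and for the mitochondrial share; red is above and blue below the mean. C3 is high in Control replicate 2 and TMA-ARB replicate 8 and low in TMA-ARB replicates 6 and 7, while C5ar1, C4b and the macrophage sum are low in TMA-ARB replicate 9.

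The macrophage marker sum moved with several members. The sum of 9 markers, among them Csf1r and Emr1 (the gene now called Adgre1), ran from 530 to 772 CPM in Control and from 301 to 797 CPM under TMA-ARB. By library it was 772, 708, 530, 545 and 596 CPM in Control replicates 1 to 5, and 797, 740, 389, 301 and 414 CPM in TMA-ARB replicates 6 to 10. The group means differed by -102 CPM (exact permutation p = 0.389). TMA-ARB replicates 8, 9 and 10 were the 3 lowest libraries for this sum, but not for each marker in it. Cd68 was at 74.2 CPM in TMA-ARB replicate 8, above its Control mean of 64.2 CPM. Cd14 was lowest in TMA-ARB replicate 6, at 81.0 CPM. Of the 9 markers, 6 had negative log2 fold changes and 3 positive ones (Cd68, Mrc1 and Cd163). C3ar1, C5ar1, C4b, Cfb and Serping1 were low in TMA-ARB replicate 9 as well. Over 10 libraries, r with the log2 macrophage sum was 0.89 for C5ar1, 0.84 for C4b, 0.78 for C3ar1, 0.70 for Serping1, 0.68 for Cfb and 0.42 for C2, against -0.42 for C3 and -0.24 for Cfp. The same members followed the endothelial sum, with r of 0.66 for C3ar1, 0.65 for Cfb, 0.63 for Serping1, 0.56 for C4b and 0.54 for C5ar1. With the fibroblast sum, r was -0.61 for Serping1, -0.21 for C4b, -0.14 for C5ar1, -0.057 for Cfb and 0.22 for C3ar1. With the neutrophil sum, r for the same members ran from -0.043 (Cfb) to 0.12 (C3ar1). No p was computed for these r values, and the part of any of these cell types in the members' differences was not tested.

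**Figure D5:**
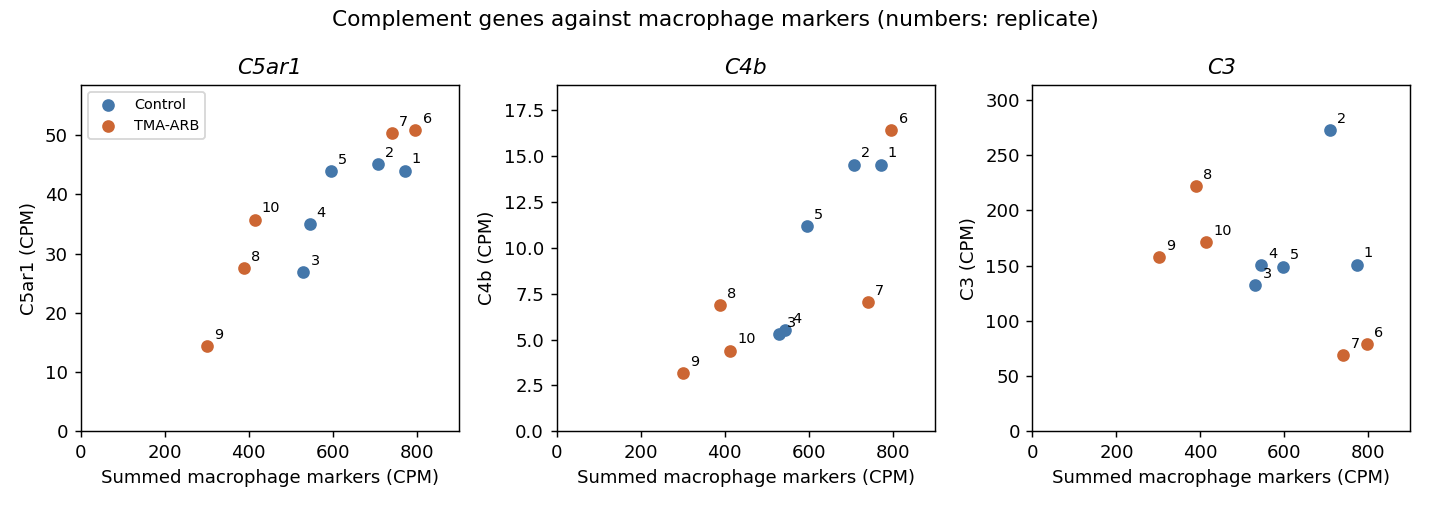
CPM of C5ar1, C4b and C3 against the summed CPM of 9 macrophage markers, 1 point per library with its replicate number. C5ar1 falls to 14.4 CPM in the library lowest in macrophage markers, TMA-ARB replicate 9, while C3 there is at 157 CPM.

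Other cell type markers overlapped between the groups too. Neutrophil markers summed to 106 to 350 CPM in Control and 77.0 to 253 CPM under TMA-ARB. Among them, S100a8 ran from 26.3 to 153 CPM and S100a9 from 20.7 to 115 CPM, while Ly6g was at most 0.393 CPM. Fibroblast markers summed to 3763 to 4792 and 3862 to 4321 CPM, and endothelial markers to 148 to 285 and 121 to 220 CPM. T cell markers summed to 10.8 to 18.8 and 6.45 to 14.5 CPM, dendritic cell markers to 5.88 to 15.8 and 5.02 to 11.7, B cell markers to 0.789 to 2.44 and 1.03 to 2.36, and mast cell markers to 7.46 to 24.3 and 5.07 to 25.5. Luminal epithelial markers summed to 83.3 to 159 and 106 to 237 CPM, adipocyte markers to 40.2 to 59.2 and 34.4 to 57.8 with Adipoq at 0 in every Control library, and muscle markers to 78.8 to 195 and 54.0 to 279. Red cell markers reached 1442 CPM in Control replicate 2, the library of highest C3, against 93.5 to 473 CPM elsewhere. The part of these cells in the members' values was not tested.

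Around the 8 members, a wider list of 54 complement genes was read. Of these, 28 could be tested: 20 were negative and 8 positive, with a median of -0.18. None passed (0 of 28 in edgeR), with 1 lower and 1 higher at an unadjusted p under 0.05, against 1.66% and 1.59% of all genes. The highest per length were the C1q chains, which start the classical route, at 248 (C1qa), 176 (C1qb) and 79.6 (C1qc) CPM per kilobase over all libraries. C1qbp, a mitochondrial protein that binds C1q, stood at 60.8, Clu, the clusterin gene, at 41.3, and C1s at 34.6. Genes of the terminal route were low. Hc, the C5 gene, was the most counted of those listed here and was tested, with up to 33 counts and 2.16 CPM in a library. C8g had up to 13 counts in a library. C7 and C8b had 0 counts in every library, as did the lectin genes Mbl1 and Mbl2, and C6, C8a and C9 had at most 9, 8 and 1 counts in a library. A count of 0 allows up to 3 counts, or 0.168 to 0.308 CPM by library, for counting error only.

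The 6 wider genes of smallest p were mostly regulators and receptors. Cd59b, which encodes an inhibitor of the membrane attack complex, measured 9.73 ± 2.93 CPM in Control and 15.6 ± 4.21 under TMA-ARB (SD, n = 5), a log2 fold change of 0.69 ± 0.28 (SE; edgeR adjusted p = 0.997). Its near relative Cd59a had 0.63 ± 0.32 and the C3b-binding regulator Cd46 0.92 ± 0.55, while Cd55, a convertase inhibitor, had -1.05 ± 0.62. Control replicates 1 and 2 held 12.2 and 14.8 CPM of Cd55, and no other library more than 5.54 CPM. Itgax, a subunit of complement receptor 4, measured 20.0 ± 5.52 and 12.1 ± 5.73 CPM (log2 fold change -0.72 ± 0.32), and C1qc had -0.52 ± 0.32. Without TMA-ARB replicate 9, Cd46 was at 0.42 and C1qc at -0.31, and without TMA-ARB replicate 6 C1qc was at -0.81. Without Control replicate 2, Cd55 was at -0.55. None of the 6 passed (edgeR adjusted p = 0.997 for each). Cd59a and Cd59b are similar genes between which reads can be divided.

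The C1q chains changed sign with the side of the 5% share. C1qa was at 0.25 below and -1.39 above, C1qb at 0.069 and -1.27, and C1qc at 0.13 and -1.21, all as log2 fold changes with edgeR adjusted p of at least 0.174. C3ar1, C5ar1, Serping1 and Cfp had the same signs on those sides, Cfp only at -0.020 above. C3 had the opposite signs, and C4b, C2 and Cfb were negative on both sides. Whether C1q and C3 differ in this was not tested.

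Genes known to induce complement in inflammation did not pass the test either (0 of 11 tested, of 12 listed). Their log2 fold changes were negative for 9 of 11, against 47.2% of all genes, with a median of -0.19. This list too was chosen with earlier results of these data known, so the contrast is a description and was not tested. In edgeR 1 was lower at an unadjusted p under 0.05, against 1.66% of all genes. That gene was Osm, which encodes the cytokine oncostatin M, at 6.12 ± 3.66 CPM in Control and 2.48 ± 1.46 under TMA-ARB (SD, n = 5), a log2 fold change of -1.30 ± 0.50 (SE; edgeR adjusted p = 0.997). Il1b, which encodes interleukin 1 beta, reached 135 CPM in Control replicate 1 and 88.9 CPM in Control replicate 2, and no other library exceeded 33.3 CPM. Its log2 fold change was -0.99 ± 0.52 (SE), and -0.42 without Control replicate 1. The C/EBP genes whose motif stands in the C3 window above had log2 fold changes of -0.19 ± 0.34 (Cebpb) and -0.44 ± 0.25 (Cebpd; SE), and neither passed. Without Control replicate 1, Cebpd was at -0.28, and Cebpb ran from -0.44 to -0.0053 as 1 library was left out.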

How the data were processed

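Tumour RNA was measured in 10 strand-marking NEBNext libraries made after poly-A selection, per the labels' protocols. The deposited table holds estimated counts by Ensembl gene, which the authors made with Salmon on mm10 per the submitters' processing notes; the Salmon version, annotation and strand setting are not given in the sources used here. Every value was whole (0 were not), and all 10 columns were matched to samples by the sample name in the labels. Groups came from the sample titles.

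All 10 libraries were fitted in edgeR 4.0.16 (R 4.3.3) and tested by quasi-likelihood, with TMM scaling, the default expression filter, robust dispersions and Benjamini-Hochberg adjustment over the 14063 genes tested at 0.05. CPM used the TMM-scaled library size, and exon lengths and coordinates came from GENCODE M21, the same assembly as mm10. Log2 CPM used a prior count of 2. The step was tested on simulated counts.

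Named genes were the 8 members, the 6 wider complement genes of smallest p and the 6 of highest level per kilobase, inducers, and for each member the 3 genes of highest Pearson's r. Members and lists were chosen with earlier results of these data known. Marker lists covered macrophages, neutrophils, fibroblasts, endothelium, T, B, dendritic and mast cells, luminal epithelium, adipocytes, muscle, hepatocytes and red cells. Part of the inducer results is not reported here. Gpr77 of the wider list matched no row under that name. Other settings were DESeq2 1.42.0, limma 3.58.1 with voom and sample weights, RLE scaling, 2 other filters, the mitochondrial share, and leaving out each library. Transcripts were aligned with BLAST+ 2.17.0. Intervals and floors cover counting error only, as no molecular identifiers are described.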

Additional observations from a re-analysis of the deposited data

Results flagged for a closer look

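In 3 of 48 groups of 5 libraries checked for the named genes, 1 library stood apart from the other 4 by more than 0.71 of the group's range (Dixon's 95% criterion, which chance passes in about 1 in 20 groups). C3 was at 273 CPM in Control replicate 2, with a gap of 0.869 of the range. C1s, the gene among those most like C3, was at 186 CPM in the same library (0.748). Cfb was at 34.2 CPM in TMA-ARB replicate 6 (0.712). No explanation was tested for these libraries.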

How the results depend on the processing

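No paired analysis was possible because the replicate numbers 1 to 10 are shared by no pair of samples. The members passing numbered 0 in each setting run, with a lowest edgeR adjusted p of 0.275 (C3 below the 5% share). Of 159 other values for members, 145 kept their direction. All settings reuse the same libraries, so these values are not independent. Over all genes, 0 passed in edgeR, against 2 in DESeq2 and 4 in libraries above a 5% mitochondrial share. Genes at an unadjusted p under 0.05 numbered 457, and 224 to 1219 with 1 library left out (224 without Control replicate 2 or TMA-ARB replicate 9, 1219 without TMA-ARB replicate 6), 826 with DESeq2, 1389 with sample weights, 1432 with no filter, 743 with the log2 share as a covariate, 1194 below and 1074 above the 5% share. Genes whose groups did not overlap numbered 74, and 90 to 482 with 1 library left out, where fewer libraries have to separate. Opposite signs were found above the 5% share for C3 (0.37), Cfp (-0.020), Serping1 (-0.86), Cd55 (0.46), C1qbp (-0.082), C1s (0.51) and Il1b (0.32); below it for C3ar1 (0.038), C5ar1 (0.19), Cd46 (-0.29), C1qa (0.25), C1qb (0.069) and C1qc (0.13); with the covariate for C4b (0.13), C5ar1 (0.20) and Cd46 (-0.014); and with sample weights for Serping1 (-0.33) and Cebpb (0.25). With 1 library left out, Serping1 ran from -0.37 to 0.25, C5ar1 from -0.28 to 0.087 and C1s from -0.58 to 0.038, the last without Control replicate 2. The difference in the endothelial sum ran from -34.3 to 2.55 CPM, the last without Control replicate 2. The cause of these changes was not tested.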
